A study of Mus musculus with 43 samples.

Results

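Immediate early genes are transcribed within minutes of a stimulus, from signalling proteins already present in the cell. The 32 genes described here are members of that class and close relatives that respond to stimuli: AP-1 and other basic leucine zipper factors, EGR and KLF zinc-finger factors, NR4A nuclear receptors, small regulators such as Ier2 and Btg2, feedback inhibitors such as Dusp1 and Zfp36, and the effectors Arc and Rhob. They were taken by gene symbol. All 32 were found, out of 24537 genes in each of 3 deposited tables covering 43 RNA-seq libraries of mouse astrocytes.

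In the usual scheme, growth factors, calcium or stress activate the kinases of the MAPK pathway, which phosphorylate SRF cofactors and CREB on the promoters of these genes. The proteins made are mostly transcription factors of short half-life, which set off a slower wave of target genes, or inhibitors that shut the signalling down. In the brain Fos, Egr1 and Arc are best known as reporters of recent neuronal firing, but astrocytes induce many of the same genes, and so do cells of many types when a tissue is cut up and digested into a suspension.

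The study set out to compare gene expression in astrocytes of disorder models, with and without a BMP signal, and between ways of preparing the cells. For the disorder set, cortical astrocytes of mice at postnatal day 7 were captured on dishes coated with antibody, a method known as immunopanning, and spent 12 days in culture without serum. Its groups were 6 libraries of wild type (WT), 6 of a Fragile X model (FXS), 6 of a model for Rett syndrome (RTT) and 4 of a Down syndrome model (DS). The labels name the disorder and give neither strain, allele nor sex. In the BMP6 set, WT cultures prepared the same way received the secreted factor BMP6 for the last 5 days (BMP6, n = 6) or nothing (Alone, n = 6), a library of each kind per culture. The preparation set held immunopanned cells labelled acute (IP acute, n = 3), immunopanned cells that were cultured (IP cultured, n = 3) and cells cultured after a preparation that the labels call MD without spelling it out (MD cultured, n = 3). For the preparations the labels give no genotype, age or culture time of their own. Nothing says that these 9 libraries came from separate cultures or animals, so their p-values measure the spread between these samples, which may be technical. Libraries are named by group and by the number in their label, and values are given in the order 2, 4 and 7 for IP acute and IP cultured and 1, 2 and 3 for MD cultured.

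Levels are FPKM, fragments per kilobase of transcript scaled to the reads mapped, a unit that corrects for gene length and so allows genes to be ranked against each other. FPKM sums differed between tables, so levels were compared within a table only. Low values move in steps of 1 read, from which the depth was estimated at 10.6 to 55.3 M reads per library (median 26.8 M). All 10 astrocyte markers, Gfap, Aqp4 and Aldh1l1 among them, were above 0 in every group. In the cultures of the disorder and BMP6 sets, astrocyte markers summed to 991 to 3526 FPKM per library, endothelial markers to 0.426 to 3.79, microglial markers to 0.053 to 18.7 and neuronal markers to 11.8 to 62.7. Other lists ran higher, at 315 to 1218 FPKM for the oligodendrocyte lineage, 80.2 to 1751 for mural cells and fibroblasts and 30.9 to 1027 for ciliated cells. In bulk RNA, fewer cells of a type and less RNA per cell cannot be told apart.

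Promoters of 6 members are shown because they belong to genes that differed widely between preparations (Fos, Fosb and Nr4a1) or that differed with BMP6 (Btg2, Egr2 and Csrnp1). They are RefSeq sequences of build GRCm38.p6, 250 bases before to 50 after the start, written 5′ to 3′ on the gene's own strand. The Fos window is chr12:85473640-85473939 on the forward strand. Fosb lies at chr7:19309996-19310295 on the reverse strand and Nr4a1 at chr15:101266596-101266895 on the forward strand. The others are at chr1:134079106-134079405 on the reverse strand (Btg2), chr10:67537316-67537615 on the forward strand (Egr2) and chr9:119982974-119983273 on the reverse strand (Csrnp1). Capitals mark matches to TGACG, the short form of the CRE, bound by CREB and ATF factors, to the full CRE TGACGTCA, to the AP-1 site TGACTCA, to the EGR site GCGGGGGCG, to the CArG box bound by SRF and to TATAAA. A match on the opposite strand reads as its reverse complement, so that CGTCA stands for TGACG there, a TGAGTCA for TGACTCA and a CGCCCCCGC for GCGGGGGCG.
Fos: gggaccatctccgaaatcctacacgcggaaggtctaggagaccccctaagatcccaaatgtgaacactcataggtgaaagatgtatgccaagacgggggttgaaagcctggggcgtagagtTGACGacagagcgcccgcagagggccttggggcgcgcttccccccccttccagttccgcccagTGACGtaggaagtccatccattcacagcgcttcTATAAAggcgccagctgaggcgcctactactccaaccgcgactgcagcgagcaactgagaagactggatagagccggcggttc
Fosb: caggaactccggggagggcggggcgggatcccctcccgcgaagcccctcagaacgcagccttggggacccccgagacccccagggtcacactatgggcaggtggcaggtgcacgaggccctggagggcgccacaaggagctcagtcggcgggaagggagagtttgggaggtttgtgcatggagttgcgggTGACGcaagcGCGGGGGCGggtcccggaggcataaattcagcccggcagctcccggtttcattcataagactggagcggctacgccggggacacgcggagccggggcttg
Nr4a1: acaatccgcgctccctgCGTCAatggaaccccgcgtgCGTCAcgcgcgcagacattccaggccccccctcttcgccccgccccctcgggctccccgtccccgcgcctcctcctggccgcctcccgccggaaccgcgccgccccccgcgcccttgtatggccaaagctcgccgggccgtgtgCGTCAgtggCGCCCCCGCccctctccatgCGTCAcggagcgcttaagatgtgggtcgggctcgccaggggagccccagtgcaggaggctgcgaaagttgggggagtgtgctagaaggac
Btg2: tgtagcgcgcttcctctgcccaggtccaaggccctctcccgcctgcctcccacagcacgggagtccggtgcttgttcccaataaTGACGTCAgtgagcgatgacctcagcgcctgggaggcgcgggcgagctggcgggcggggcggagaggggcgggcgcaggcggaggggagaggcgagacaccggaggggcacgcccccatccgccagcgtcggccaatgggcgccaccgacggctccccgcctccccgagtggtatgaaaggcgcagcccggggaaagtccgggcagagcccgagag
Egr2: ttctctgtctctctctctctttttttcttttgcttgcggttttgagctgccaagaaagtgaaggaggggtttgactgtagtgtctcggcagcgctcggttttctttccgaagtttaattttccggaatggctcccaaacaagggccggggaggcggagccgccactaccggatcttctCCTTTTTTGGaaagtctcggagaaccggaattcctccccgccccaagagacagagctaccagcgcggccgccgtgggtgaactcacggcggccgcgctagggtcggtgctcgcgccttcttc
Csrnp1: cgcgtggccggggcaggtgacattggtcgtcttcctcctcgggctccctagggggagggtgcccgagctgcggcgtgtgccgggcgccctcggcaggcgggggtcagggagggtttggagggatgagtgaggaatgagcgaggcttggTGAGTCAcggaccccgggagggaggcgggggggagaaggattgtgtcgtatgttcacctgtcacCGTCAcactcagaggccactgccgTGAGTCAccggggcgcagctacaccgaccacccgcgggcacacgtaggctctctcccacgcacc
In the Fos promoter TGACG begins at −129 and −66 and TATAAA at −33 from the start site. Nr4a1 has 4 matches to TGACG, at −233, −213, −69 and −40, with GCGGGGGCG between the last 2 of these, at −60. Fosb carries TGACG at −60 and GCGGGGGCG at −50. Btg2 holds the full TGACGTCA at −166, Egr2 a CArG box at −72, and Csrnp1 TGACTCA at −102 and −14 with TGACG at −38. Both strands were searched, except for TATAAA, and every TGACGTCA also contains TGACG.

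Promoters were found for 27 of the 32 members, and not for Egr1, Egr3, Arc, Ier2 and Klf10. A gene was counted where any of its listed starts had the match, among the members and among all 27025 genes with a promoter of this length. TGACG was in 17 of the 27 members, Egr2 among them through a start other than the one printed, and in 23% of all genes. The full TGACGTCA was in 4 of 27 against 2.03% of all genes, and GCGGGGGCG in 6 against 3.31%. TATAAA on the sense strand was in 6 against 9.77% of all. The CArG box was in 2 (Egr2 and Zfp36) against 1.81%, and TGACTCA in Csrnp1 alone, against 5.95% of all. These are matches of letters, and binding was not measured. Bases more than 250 before the start were not searched, so a member without a match may carry the motif farther away.

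Of the comparisons made, those between preparations held the widest differences in these genes. In IP acute, Fos ranked 4 to 6 among all genes of a library, and most members were lower in both cultured preparations. The members took 1.71%, 1.85% and 2.34% of all FPKM in IP acute 2, 4 and 7, 0.130%, 0.197% and 0.119% in IP cultured 2, 4 and 7, and 0.188%, 0.311% and 0.215% in MD cultured 1, 2 and 3. Each IP acute library had between 12 and 18 members among its 500 most abundant genes, each IP cultured library at most 1 and each MD cultured library 1 or 2.

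**Figure D1:**
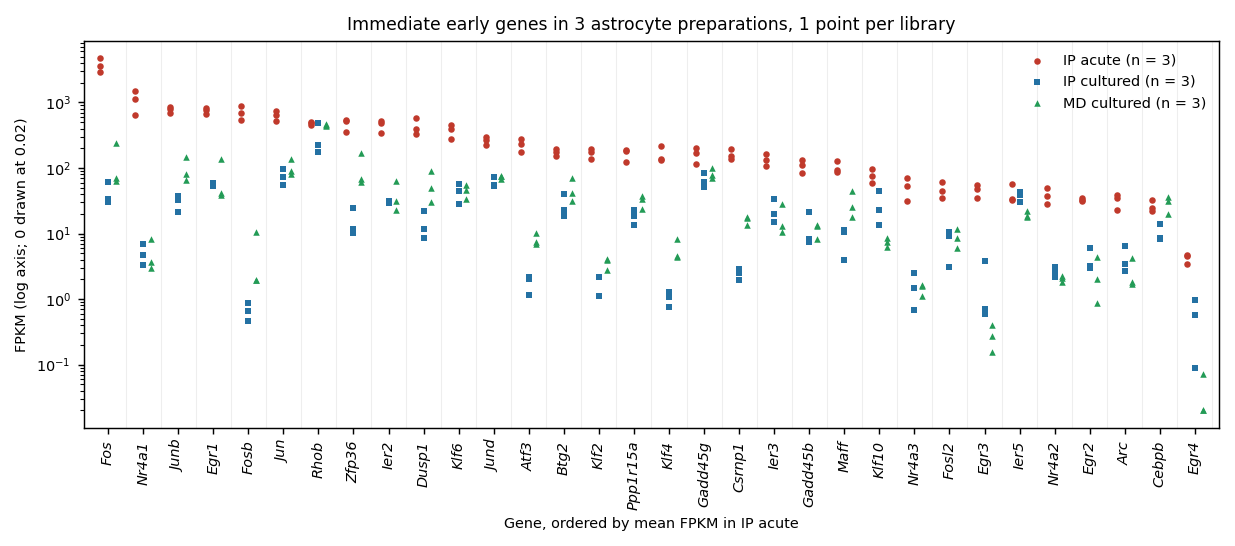
FPKM on a log axis of the 32 genes in the 9 preparation libraries, a point per library (IP acute, IP cultured and MD cultured, n = 3 each), with genes ordered by their mean in IP acute. The IP acute points lie above all others for 29 genes; Rhob, Ier5 and Cebpb are the exceptions, and 2 MD cultured libraries list Egr4 at 0.

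By limma on log2(FPKM + 0.5), 30 of 32 members were lower in IP cultured than in IP acute at an adjusted p under 0.05 and none was higher. Of all 14101 genes tested, 43.3% passed in either direction and 25.5% as lower. Groups did not overlap, with IP cultured lower, for the same 30 members and for 29.4% of all genes. The median difference of the members was −3.41 on the log2 scale against −0.04 for all genes. In the authors' deposited table the members lower were also 30, at an adjusted p under 0.05. All 32 members entered the test, Egr4 only through its level in IP acute.

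Fos and Fosb, AP-1 factors that dimerise with Jun proteins, were abundant in IP acute, and Fosb had the largest difference of the members. Fos stood at 2901, 3636 and 4711 FPKM in IP acute, 30.2, 61.2 and 34 in IP cultured and 69.7, 237 and 63.5 in MD cultured. The lowest IP acute library was thus an order of magnitude above the highest cultured one, which was MD cultured 2. IP cultured differed from IP acute by −6.51 (SE 0.49, adjusted p = 3.58e-05), a ratio of 89.7 between mean FPKM. Fosb stood at 544, 684 and 882 FPKM in IP acute, 0.646, 0.865 and 0.468 in IP cultured and 1.96, 10.5 and 1.93 in MD cultured. Fosb went from the most abundant 125 genes in every IP acute library to under 1 FPKM in every IP cultured library, and MD cultured lay in between without overlap. Its difference of −9.23 (SE 0.53, adjusted p = 9.03e-06) was the sixth largest fall among all genes, and mean FPKM was 1066 times higher in IP acute. Fosl2, the member of the Fos family that is induced later, fell less, by 2.67 (SE 0.43, adjusted p = 0.00151), from 47 ± 13 (SD, n = 3) to 7.62 ± 4.01 (SD, n = 3) FPKM.

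The genes of the Jun proteins, the partners of Fos, fell less than Fos between IP acute and IP cultured. Jun stood at 521, 637 and 731 FPKM in IP acute, 96.1, 73.8 and 55.7 in IP cultured and 81.6, 137 and 89.5 in MD cultured. Junb stood at 799, 702 and 847 FPKM in IP acute, 32.9, 36.9 and 21.1 in IP cultured and 66.4, 147 and 79.9 in MD cultured. Both sets of IP acute values lay above every cultured library, and MD cultured 2 was the highest cultured library for each. Differences between IP cultured and IP acute were −3.08 (SE 0.25, adjusted p = 5.2e-05) for Jun and −4.70 (SE 0.30, adjusted p = 1.62e-05) for Junb. Jund, which is expressed in most cells without a stimulus, had the smallest difference of the 3, −2.11 (SE 0.15, adjusted p = 2.54e-05), from 263 ± 33.9 (SD, n = 3) to 60.6 ± 11.2 (SD, n = 3) FPKM.

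Other basic leucine zipper factors split. The stress-induced factor Atf3 stood at 231, 173 and 277 FPKM in IP acute, 2.19, 2.02 and 1.13 in IP cultured and 6.98, 7.46 and 10.2 in MD cultured. The 3 groups did not overlap for Atf3, in the order IP acute, MD cultured, IP cultured, and IP cultured differed from IP acute by −6.65 (SE 0.25, adjusted p = 9.76e-07). Maff, a small Maf protein without an activation domain, fell by 3.61 (SE 0.43, adjusted p = 0.000332). Cebpb, a factor of inflammatory and metabolic gene programmes, had a narrower range: 22.1, 24.8 and 32.6 FPKM in IP acute, 8.68, 13.8 and 8.36 in IP cultured and 19.6, 31.5 and 36.6 in MD cultured. Its IP acute and MD cultured values overlapped, while IP cultured differed from IP acute by −1.34 (SE 0.27, adjusted p = 0.00478).

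The EGR factors bind GC-rich sites, and Egr1 is the member most used as a marker of activity. Egr1 stood at 773, 676 and 820.3 FPKM in IP acute, 59.4, 53.7 and 54.4 in IP cultured and 38.8, 137 and 42.1 in MD cultured. IP cultured libraries were close together and MD cultured 2 stood above the other two MD cultured libraries. The difference of IP cultured from IP acute was −3.74 (SE 0.41, adjusted p = 0.00022). Egr2, which is needed for myelination in the peripheral nerve, fell by 2.93 (SE 0.43, adjusted p = 0.000936), and Egr3 fell by 4.68 (SE 0.48, adjusted p = 0.000162). Egr3 stood at 34.5, 48.4 and 54.4 FPKM in IP acute, 3.81, 0.587 and 0.698 in IP cultured and 0.269, 0.404 and 0.153 in MD cultured. Egr3 was lowest in MD cultured, where every library lay below every IP cultured library, and IP cultured 2 was high for its group. Egr4 was the least abundant member in every group, with 3.46 to 4.65 FPKM in IP acute (about 155 to 230 reads), 0.090 to 0.960 FPKM in IP cultured (about 4 to 44 reads), and 0.071 FPKM, or about 3 reads, in MD cultured 1, while MD cultured 2 and 3 list it at 0.

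Among the KLF factors, Klf2 and Klf4 were high in IP acute and low in IP cultured. Klf2 stood at 177, 139 and 193 FPKM in IP acute, 1.11, 2.17 and 1.12 in IP cultured and 2.79, 4.03 and 3.96 in MD cultured. Klf4 stood at 138, 134 and 218 FPKM in IP acute, 1.29, 0.747 and 1.06 in IP cultured and 4.61, 8.16 and 4.40 in MD cultured. In each, MD cultured stood above IP cultured without overlap and far below IP acute. Klf2, which in endothelial cells responds to flow, differed by −6.46 (SE 0.24, adjusted p = 9.76e-07) between IP cultured and IP acute, and Klf4, a factor of pluripotency and of vascular and skin cells, by −6.72 (SE 0.28, adjusted p = 1.54e-06). Klf6 and the TGF-beta-inducible Klf10 kept a higher level in culture. Klf6 fell by 3.14 (SE 0.29, adjusted p = 9.82e-05) to 42.8 ± 14.2 (SD, n = 3) FPKM and Klf10 fell by 1.63 (SE 0.38, adjusted p = 0.00869) to 27 ± 15.9 (SD, n = 3) FPKM. With the library number as a block the Klf10 difference had an adjusted p of 0.05005, just short of the threshold.

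The NR4A receptors are orphan nuclear receptors whose activity follows their amount. Nr4a1 stood at 653, 1117 and 1470.4 FPKM in IP acute, 4.63, 7.01 and 3.35 in IP cultured and 2.93, 8.28 and 3.63 in MD cultured. Every IP acute library was above every cultured library, and the cultured groups overlapped. The difference was −7.60 (SE 0.42, adjusted p = 7.33e-06), the tenth largest fall of any gene, with a ratio of 216 between mean FPKM. Nr4a2, needed for midbrain dopamine neurons, fell by 3.61 (SE 0.21, adjusted p = 1.01e-05) and Nr4a3 fell by 4.70 (SE 0.38, adjusted p = 4.86e-05). Both were at 28.6 FPKM or more in each IP acute library and at 3.06 FPKM or less in each cultured library.

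The small nuclear regulators differed widely in size of change. Csrnp1 stood at 151, 138 and 192 FPKM in IP acute, 2.92, 2.52 and 1.93 in IP cultured and 13.5, 17.6 and 17.5 in MD cultured, and encodes a nuclear protein that is induced by AXIN1 and acts in transcription. All 3 groups were apart, with MD cultured in the middle, and Csrnp1 had the smallest p-value of the members at −5.77 (SE 0.18, adjusted p = 4.44e-07). Ier2 fell by 3.89 (SE 0.33, adjusted p = 6.64e-05) and Btg2, an antiproliferative partner of the CCR4-NOT deadenylase, fell by 2.74 (SE 0.33, adjusted p = 0.000371). Ier5 was the exception: 56.9, 32 and 33.5 FPKM in IP acute, 30.1, 38.7 and 43.8 in IP cultured and 18.2, 22.4 and 18 in MD cultured. IP acute and IP cultured overlapped (−0.09, SE 0.23, adjusted p = 0.794), and the MD cultured libraries were the lowest.

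Feedback inhibitors were among the most abundant members in IP acute. The MAPK phosphatase Dusp1 stood at 575, 333 and 398 FPKM in IP acute, 11.8, 22.3 and 8.66 in IP cultured and 30.3, 88.8 and 49.8 in MD cultured. Zfp36 stood at 522, 359.7 and 536 FPKM in IP acute, 11.7, 24.8 and 10.1 in IP cultured and 66.9, 170.3 and 61.9 in MD cultured, and encodes tristetraprolin, which marks AU-rich transcripts for decay. For both genes every MD cultured library was above every IP cultured library, and IP cultured 4 was the highest of its group. IP cultured differed from IP acute by −4.95 (SE 0.44, adjusted p = 7.8e-05) for Dusp1 and −4.97 (SE 0.44, adjusted p = 7.8e-05) for Zfp36. Ier3 fell by 2.60 (SE 0.39, adjusted p = 0.00108), and Ppp1r15a, which directs a phosphatase to eIF2alpha and restarts translation, fell by 3.12 (SE 0.25, adjusted p = 4.48e-05). The stress sensors Gadd45b and Gadd45g, activators of p38 and JNK signalling, differed by −3.21 (SE 0.38, adjusted p = 0.000341) and by −1.30 (SE 0.24, adjusted p = 0.00314).

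Of the effectors, Arc, which removes AMPA receptors from synapses, was at 32.5 ± 8.30 (SD, n = 3) FPKM in IP acute and 4.19 ± 2.05 (SD, n = 3) in IP cultured, a difference of −2.87 (SE 0.39, adjusted p = 0.000648). Rhob stood at 459.7, 492 and 507 FPKM in IP acute, 175, 489 and 223 in IP cultured and 444, 453 and 475 in MD cultured. Rhob is a small GTPase of endosomes, and its groups overlapped: IP cultured 4 was within the range of IP acute, and the other IP cultured libraries were lower (−0.86, SE 0.32, adjusted p = 0.0569). The 2 members that did not pass this test, Rhob and Ier5, did not pass in the authors' deposited table either, with adjusted p of 0.237 and 0.933.

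**Figure D2:**
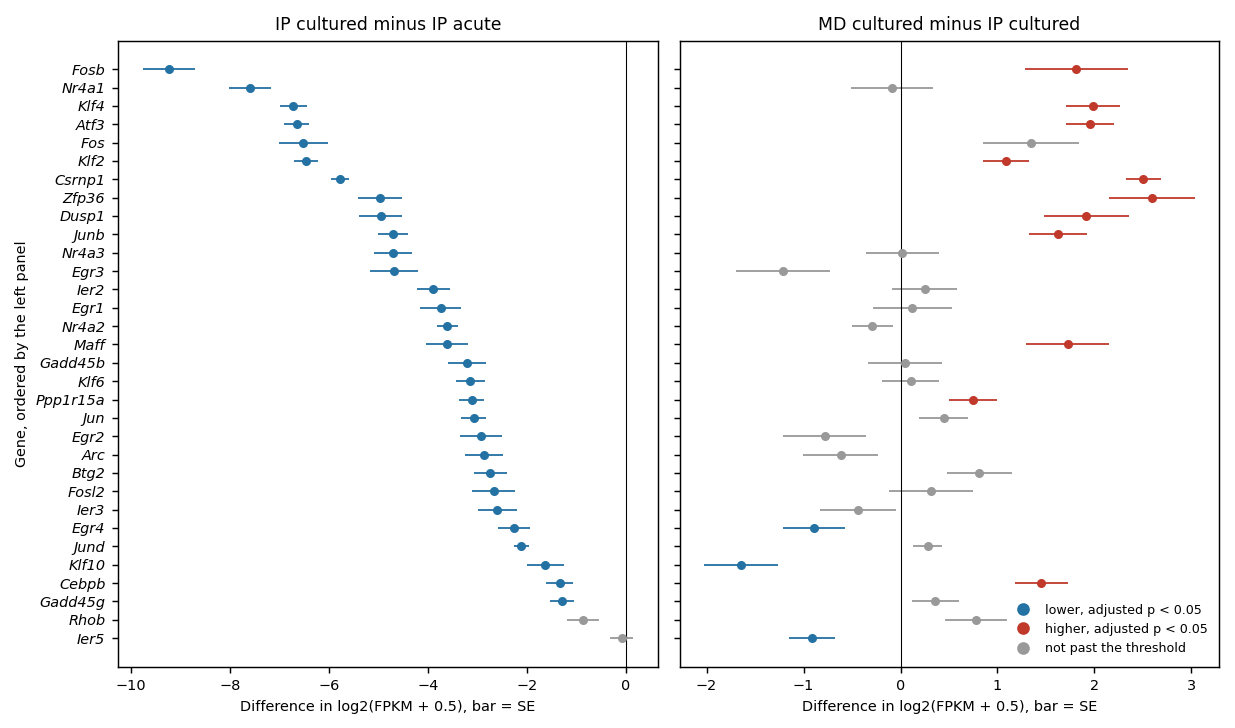
Difference in log2(FPKM + 0.5) with its standard error for the 32 genes, IP cultured minus IP acute on the left and MD cultured minus IP cultured on the right, coloured by direction where the adjusted p is under 0.05. On the left 30 genes lie below 0 in colour, from Fosb at −9.23 to Gadd45g at −1.30, and on the right 11 lie above and 3 below.

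Markers of other cell types also differed between IP acute and IP cultured, in both directions. The endothelial markers summed to 1171, 657 and 848 FPKM in IP acute 2, 4 and 7 and to 1.28 to 5.46 FPKM in the cultured libraries, and all 6 were lower in IP cultured. Cldn5, which defines the endothelium of brain vessels, was at 399 to 677 FPKM in IP acute and at most 0.033 FPKM in IP cultured. Neuronal markers summed to 505, 1596 and 353 FPKM in IP acute, 12.4 to 23.1 in IP cultured and 104 to 190.2 in MD cultured, and all 8 were lower in IP cultured. Microglial sums were 1061, 92.9 and 314 FPKM in IP acute and 45.2 to 144 in IP cultured, with 5 of 8 markers lower. Markers of the oligodendrocyte lineage went the other way, at 1456, 1084 and 1151 FPKM in IP acute and 3702, 1962 and 3015 in IP cultured, with 6 of 9 higher and 3 lower. Ciliated sums were 15.6 to 34.4 FPKM in IP acute and 64.7 to 261 in IP cultured, with 1 of 6 markers higher. Mural and fibroblast sums overlapped, at 661 to 1938 and 345 to 1562 FPKM. Fos was highest in IP acute 7, which was the highest of its group in 27 of 32 members. No marker of these lists was at 0 in all libraries of IP acute. The part of these cells in the members' difference was not tested.

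Genes of related function were counted in the same way. Of 40 other stimulus-induced genes, 26 were lower and 2 higher in IP cultured, with a median difference of −1.84. Sik1, a kinase that restrains CREB signalling, differed by −5.16 (SE 0.23, adjusted p = 2.36e-06), the NF-kappaB inhibitor Tnfaip3 by −4.56 (SE 0.28, adjusted p = 1.19e-05), the clock-related repressor Bhlhe40 by −3.23 (SE 0.21, adjusted p = 1.69e-05) and the activity-dependent factor Npas4 by −5.33 (SE 0.36, adjusted p = 1.94e-05). Of 33 upstream regulators (kinases, SRF and CREB with their cofactors, and NF-kappaB proteins), 13 were lower and 1 was higher, with a median of −0.34. Nfkbia, an inhibitor of NF-kappaB and itself its target, differed by −3.32 (SE 0.23, adjusted p = 2.08e-05), and Srf, the factor that binds the CArG box, by −2.17 (SE 0.26, adjusted p = 0.000365).

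MD cultured libraries were also lower than IP acute in most of these genes. The test called 30 of 32 members lower and none higher, where 60.1% of all genes passed in either direction and 39.8% as lower. The members' median difference was −3.17 against −0.24 for all genes. This comparison and the others between preparations share libraries. Nr4a1 differed most, by −7.68 (SE 0.42, adjusted p = 4.12e-06), then Fosb by −7.42 (SE 0.53, adjusted p = 1.34e-05) and Egr3 by −5.89 (SE 0.48, adjusted p = 2.7e-05). The exceptions were Cebpb at 0.11 (SE 0.27, adjusted p = 0.747) and Rhob at −0.09 (SE 0.32, adjusted p = 0.828). Ier5, which did not pass between IP cultured and IP acute, was lower in MD cultured, at 19.5 ± 2.45 (SD, n = 3) FPKM against 40.8 ± 14 (SD, n = 3) (adjusted p = 0.00566).

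The 2 cultured preparations differed in a mixed way. Against IP cultured, MD cultured was higher in 11 members and lower in 3, or 43.8% of them, a share near that of all genes, of which 45.8% passed, 16.4% as higher and 29.3% as lower. The members' median difference was 0.33 and that of all genes −0.16. The 11 higher members were Csrnp1 (2.502, SE 0.18, adjusted p = 8.22e-05), Zfp36 (2.59, SE 0.44, adjusted p = 0.0021), Klf4 (1.99, SE 0.28, adjusted p = 0.000886), Atf3 (1.95, SE 0.25, adjusted p = 0.00058), Dusp1 (1.92, adjusted p = 0.00801), Fosb (1.81, adjusted p = 0.0226), Maff (1.73, adjusted p = 0.0114), Junb (1.62, adjusted p = 0.00308), Cebpb (1.45, adjusted p = 0.00337), Klf2 (1.08, adjusted p = 0.0067) and Ppp1r15a (0.75, adjusted p = 0.0368). Both feedback inhibitors Dusp1 and Zfp36 were thus among them, as were both Klf2 and Klf4. The 3 lower members were Klf10 (−1.65, SE 0.38, adjusted p = 0.00822), Ier5 (−0.91, SE 0.23, adjusted p = 0.0127) and Egr4 (−0.90, adjusted p = 0.0477). Egr4 entered the test only through its level in IP acute, and all libraries compared here held it at under 1 FPKM. Fos, at 1.34 (SE 0.49), missed the threshold with an adjusted p of 0.053 although its groups did not overlap. In the authors' deposited table Fos passed as higher, at 1.71 (adjusted p = 0.00866). Btg2 also passed there as higher (adjusted p = 0.0457) and Egr3 as lower (adjusted p = 0.00883). Groups did not overlap in 16 members, these 14 with Fos and Egr3, and in 56.4% of all genes.

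MD cultured 2 was the highest of its group in 23 of 32 members, and it carried the highest Fos, Egr1, Junb, Dusp1 and Zfp36 among the cultured libraries. Egr1 differed by 0.12 (SE 0.41, adjusted p = 0.832) between MD cultured and IP cultured. Without MD cultured 2 its difference turned to −0.46 with an adjusted p of 0.0266. The members called without that library were 10 higher and 4 lower, where 33.9% of all genes passed. Fosb lost its call without IP cultured 2 or 7 (adjusted p up to 0.0709), Ppp1r15a without IP cultured 2 or 7 or MD cultured 2 or 3 (adjusted p up to 0.125) and Egr4 without IP cultured 2 or 7 or any MD cultured library (adjusted p up to 0.157). Scaling by the median of ratios moved the median of all genes from −0.16 to 0.00 and gave 15 members higher and 2 lower, with 42.7% of all genes passing. In the other stimulus-induced genes, 16 of 40 were higher and 6 lower, led by the glucocorticoid- and serum-induced kinase Sgk1 at 3.84 (SE 0.39, adjusted p = 0.000223), with Myc lower at −1.97 (SE 0.21, adjusted p = 0.000314). Marker sums moved with these differences too. Those of the oligodendrocyte lineage were 430 to 661 FPKM in MD cultured and 1962 to 3702 in IP cultured, with 9 of 9 markers lower and a median difference of −4.05. Ciliated sums were 286 to 614 FPKM against 64.7 to 261, with 5 of 6 markers higher, neuronal sums 104 to 190.2 against 12.4 to 23.1, with 2 of 8 higher, and astrocyte sums 9101 to 11953 against 3640 to 6813, with 3 of 10 higher and 1 lower. The part of these cells in the members' differences was not tested.

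In WT cultures, 5 days of BMP6 went with lower levels of Egr1, Egr2, Klf10, Ier5 and Btg2 and a higher level of Csrnp1, while Fos, Junb and Nr4a1 did not pass the test. BMP6 is a ligand of the BMP receptors, which signal through SMAD proteins. The Alone libraries of cultures NAAC91 and NAAC122 stood apart, with a median correlation to their own group of 0.927 and 0.904 against 0.960 to 0.963 for the other Alone libraries. Of 26 members tested, 1 was higher and 5 were lower, or 23.1%, where 15.1% of all 12185 genes passed, 5.38% as higher and 9.72% as lower. This fit did not pair the libraries of a culture, and the fit with the culture as a block is given below. The median difference was −0.14 for the members and −0.08 for all genes. Fosb, Atf3, Egr3, Egr4, Nr4a3 and Arc were at or over 1 FPKM in too few libraries to be tested. Atf3 was at 0.345 to 1.51 FPKM over these 12 libraries.

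The libraries of a culture carry the same number and batch label, so values are given for cultures NAAC76, NAAC81, NAAC91, NAAC120, NAAC122 and NAAC124 in that order. Csrnp1 was at 1.58, 1.38, 2.07, 1.61, 1.15 and 1.44 FPKM in Alone and 3.24, 3.10, 3.86, 3.55, 4.64 and 2.18 in BMP6. Every BMP6 library was above every Alone library, and mean FPKM was 2.23 times higher with BMP6 (0.93, SE 0.16, adjusted p = 0.00359). Btg2 was at 13.5, 17, 14.6, 16.3, 11.7 and 13.4 FPKM in Alone and 10.5, 7.93, 9.75, 8.15, 10.1 and 8.87 in BMP6. Every BMP6 library was below every Alone library, a difference of −0.61 (SE 0.10, adjusted p = 0.00344). Of the 26 members tested, these were the 2 whose groups did not overlap, against 7.93% of all genes.

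Egr1 was at 19.1, 41.1, 25.4, 59.1, 101 and 32.4 FPKM in Alone and 17.2, 13.6, 7.51, 11.1, 33.1 and 14.8 in BMP6. It was lower with BMP6 in all 6 cultures, by −0.15 in culture NAAC76 to −2.36 in culture NAAC120, although the groups overlapped. The difference was −1.41 (SE 0.40, adjusted p = 0.0362), and with the culture as a block the adjusted p was 0.00628. Egr2 was at 1.51, 2.78, 0.714, 1.42, 1.67 and 1.03 FPKM in Alone and 1.45, 0.589, 0.234, 0.325, 0.522 and 0.323 in BMP6. Its BMP6 value in culture NAAC76 was the high one, near its Alone value, and the difference was −0.93 (SE 0.27, adjusted p = 0.0403). Klf10 was at 5.29, 7.26, 12.7, 7.59, 25.5 and 4.88 FPKM in Alone and 5.12, 2.91, 2.81, 3.17, 4.42 and 3.12 in BMP6. The Alone library of culture NAAC122 was the highest, the BMP6 libraries lay within a narrow band, and the difference was −1.22 (SE 0.34, adjusted p = 0.031). Ier5 was at 22.1, 26.5, 14.5, 21.3, 13.2 and 22.3 FPKM in Alone and 11.7, 12.7, 13.4, 12.9, 10.8 and 17.5 in BMP6. BMP6 was lower in each culture, from −1.03 to −0.11 on the log2 scale, and the difference was −0.56 (SE 0.17, adjusted p = 0.0447).

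**Figure D3:**
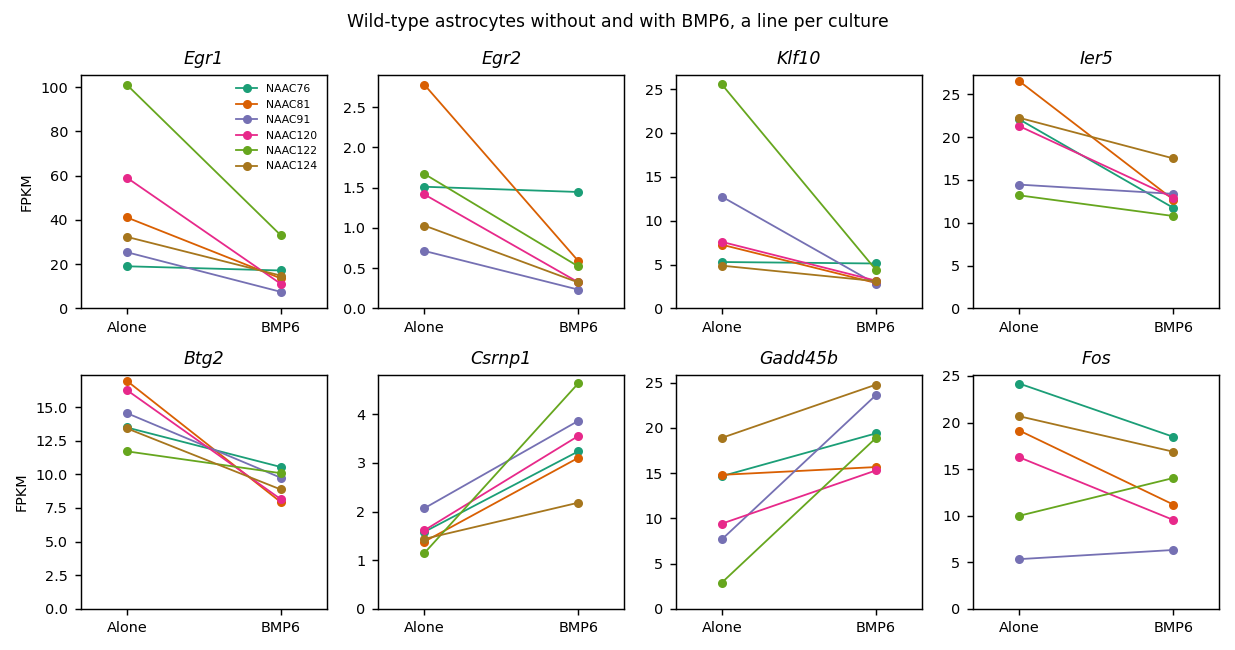
FPKM of 8 genes in 6 wild-type cultures without (Alone) and with BMP6, a coloured line per culture and an axis from 0 in each panel. Lines fall in every culture for Egr1, Egr2, Klf10, Ier5 and Btg2 and rise in every culture for Csrnp1 and Gadd45b, while those of Fos go both ways.

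With the culture as a block, 9 of the 26 members tested passed, 2 higher and 7 lower. That share was near that of all genes, whose count went from 1839 to 4321, or 35.5%. The 3 members added were Gadd45g at −0.59 (adjusted p = 0.0105), Ier2 at −0.33 (adjusted p = 0.0186) and Gadd45b at 0.93 (adjusted p = 0.0452). Gadd45b was at 14.7, 14.8, 7.67, 9.41, 2.90 and 18.9 FPKM in Alone and 19.4, 15.7, 23.6, 15.3, 18.9 and 24.8 in BMP6. It was higher with BMP6 in each culture, most in culture NAAC122, where the Alone library was the lowest of all 12. Of all 32 members, 7 were lower in all 6 cultures (Egr1, Egr2, Egr3, Klf10, Ier2, Ier5 and Btg2) and 2 were higher (Csrnp1 and Gadd45b). Egr3 was not among the members tested. Over all 12185 genes tested 26% were lower and 12.0% higher in every culture, both larger shares than those of the members.

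Fos itself was at 24.2, 19.1, 5.33, 16.3, 9.99 and 20.7 FPKM in Alone and 18.5, 11.2, 6.31, 9.54, 14 and 16.9 in BMP6. It was lower with BMP6 in 4 cultures and higher in NAAC91 and NAAC122, with a difference of −0.24 (SE 0.35, adjusted p = 0.68). Junb at 0.15 (SE 0.11, adjusted p = 0.369) and Nr4a1 at −0.32 (SE 0.23, adjusted p = 0.383) also overlapped between groups. Jun was at 41.9, 32, 111, 50.6, 116 and 41.1 FPKM in Alone and 42.2, 34.8, 49.6, 45.6, 48.9 and 41.4 in BMP6. Its Alone values of cultures NAAC91 and NAAC122 were the highest of the table, while its BMP6 values were close together. Without cultures NAAC91 and NAAC122, Btg2, Csrnp1 and Ier5 still passed, as did 4.01% of all genes, and Egr1, Egr2 and Klf10 did not. With these cultures left out and the culture as a block, 13 of 27 members tested passed, 3 higher and 10 lower, where 31.3% of all genes did, Fos among the lower at −0.54 (adjusted p = 0.0114).

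All libraries with the culture as a block gave limma adjusted p of 0.0107 for Egr2, 0.0139 for Ier5 and 0.0156 for Klf10. Libraries were left out in turn in the fit without the block, which breaks a pair each time. There, calls other than those of Btg2 and Csrnp1 were lost without some libraries. Egr1 lost its call without the BMP6 library of NAAC76, NAAC81, NAAC91 or NAAC120 or the Alone library of NAAC81, NAAC120 or NAAC122 (adjusted p up to 0.0788). Klf10 lost its call without the BMP6 library of NAAC81, NAAC91, NAAC120 or NAAC122 or the Alone library of NAAC91 or NAAC120 (adjusted p up to 0.0695). Egr2, with an adjusted p of up to 0.086, and Ier5, with one of up to 0.0971, lost theirs without any of 9 libraries each: Egr2 without the Alone library of NAAC76, NAAC81, NAAC120 or NAAC122 or the BMP6 library of NAAC81, NAAC91, NAAC120, NAAC122 or NAAC124, and Ier5 without the Alone library of NAAC76, NAAC81, NAAC120 or NAAC124 or the BMP6 library of any culture but NAAC124. Btg2 and Csrnp1 lost theirs under 1 alternative each, the demand for a fold change of at least 2. Scaling by the median of ratios or quantile normalization left 3 members, and 12.4% or 12.0% of all genes. Astrocyte markers summed to 991 to 2662 FPKM in Alone and 1674 to 3526 in BMP6, higher with BMP6 in every culture. Markers of the oligodendrocyte lineage summed to 472 to 1218 FPKM in Alone and 420.2 to 940 in BMP6, lower with BMP6 in every culture, and all 5 markers tested had negative differences that did not pass. Mural and fibroblast markers summed to 80.2 to 709.7 FPKM in Alone and 138 to 455 in BMP6, and ciliated markers to 30.9 to 369 and 33.9 to 316. The part of these in the members' differences was not tested.

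In the other stimulus-induced genes, 3 of 34 tested were higher with BMP6 and 1 was lower. Ier5l, a relative of Ier5, differed by 1.08 (SE 0.26, adjusted p = 0.0185) in the direction opposite to Ier5. The small GTPase Gem differed by 1.59 (SE 0.46, adjusted p = 0.0382), the transcription factor Maf by 0.98 (SE 0.30, adjusted p = 0.0459) and Myc by −0.79 (SE 0.15, adjusted p = 0.00601). Of the 33 upstream regulators, Mapk3, which encodes the kinase ERK1, differed by 0.27 (SE 0.07, adjusted p = 0.0204) and none was lower past the threshold.

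In the disorder cultures few of these genes differed past the threshold. Members took 0.0958% to 0.161% of all FPKM per library, and Fos, Egr1 and Junb overlapped between all 4 groups. Fosb (at most 0.572 FPKM), Egr3 (at most 0.754), Egr4 (at most 0.192) and Arc (at most 1.06) were too low to be tested, which left 28 members. The comparisons of FXS, RTT and DS with WT share the 6 WT libraries. By limma, none of the 28 passed in FXS or in RTT, where 0.00782% of all 12780 genes passed in each, and 3 members had an unadjusted p under 0.05 in each, as did 19.5% and 10.5% of all genes. In DS, 2 of 28 were lower, where 4.35% of all genes passed and 2.25% as lower, and 5 members had an unadjusted p under 0.05, as did 19.8% of all genes. Members' medians were −0.13 in FXS, 0.10 in RTT and −0.11 in DS, and those of all genes −0.02, −0.03 and −0.07.

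The 2 members lower in DS were Klf10 and Cebpb. Klf10 was at 4.02, 5.56 and 7.69 FPKM in WT, 2.95, 3.98 and 6.83 in FXS and 3.26, 5.11 and 5.78 in RTT (lowest, median and highest), and 3.22, 3.00, 2.80 and 3.31 in DS 19, 21, 32 and 39. All DS libraries were below all WT libraries, and the difference was −0.77 (SE 0.20, adjusted p = 0.0329). Cebpb was at 5.73, 7.40 and 9.99 FPKM in WT, 4.48, 6.35 and 7.96 in FXS and 6.28, 7.17 and 9.48 in RTT (lowest, median and highest), and 6.35, 5.51, 3.49 and 4.00 in DS 19, 21, 32 and 39. DS 21, 32 and 39 lay below every WT library and DS 19 did not, with a difference of −0.64 (SE 0.17, adjusted p = 0.0307). Klf10 lost its call without WT 30, 34 or 35 or any DS library, with an adjusted p of up to 0.0889, and Cebpb without WT 33 or 34 or DS 32 or 39, with an adjusted p of up to 0.0819. Without WT 33, FXS 31 and DS 32, each the highest of its group in mural and fibroblast markers (1751, 1094 and 1003 FPKM in sum), neither passed and Ppp1r15a did, at 0.40 (adjusted p = 0.0321). Btg2 was the other member whose DS and WT libraries did not overlap (3.74% of all genes did not overlap with DS lower), at −0.59 (SE 0.21, adjusted p = 0.125), and passed with DS and WT alone in the fit, at an adjusted p of 0.0153. In that fit Klf10 kept its call and Cebpb lost its own.

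Fos was at 8.48, 12.6 and 14.7 FPKM in WT, 6.87, 9.92 and 21.1 in FXS and 8.92, 14.2 and 28 in RTT (lowest, median and highest), and 8.78, 11.3, 5.88 and 11.2 in DS 19, 21, 32 and 39. RTT held the highest library, RTT 20, and DS 32 the lowest. Differences from WT were −0.23 (SE 0.25, adjusted p = 0.679) in FXS, 0.31 (SE 0.25, adjusted p = 0.593) in RTT and −0.40 (SE 0.28, adjusted p = 0.456) in DS. Egr1 was at 7.98, 12.5 and 25.7 FPKM in WT, 5.15, 7.68 and 48 in FXS and 6.55, 25.8 and 71.6 in RTT (lowest, median and highest), and 8.07, 9.72, 4.16 and 18.3 in DS 19, 21, 32 and 39. It varied widely within FXS and within RTT, and all 4 groups overlapped. Its differences from WT were −0.17 (SE 0.51, adjusted p = 0.896) in FXS, 0.90 (SE 0.51, adjusted p = 0.495) in RTT and −0.49 (SE 0.57, adjusted p = 0.663) in DS.

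Junb was at 4.56, 6.61 and 11.6 FPKM in WT, 2.69, 3.53 and 6.02 in FXS and 2.72, 6.86 and 9.15 in RTT (lowest, median and highest), and 5.59, 5.92, 4.29 and 3.69 in DS 19, 21, 32 and 39. FXS values were mostly below those of WT without clearing them (−0.70, SE 0.25, adjusted p = 0.143). Nr4a3 was at 0.874, 1.56 and 2.13 FPKM in WT and 2.03, 2.30 and 3.41 in FXS. It was the member of smallest p in FXS at 0.62 (SE 0.18, adjusted p = 0.118), with the lowest FXS library just under the highest WT library. Ppp1r15a was at 7.25, 8.83 and 9.99 FPKM in WT and 10.03, 11.3 and 12.5 in RTT. Every RTT library was above every WT library, which held for 0.532% of all genes, yet the difference of 0.34 (SE 0.14, adjusted p = 0.47) did not pass. Nr4a1 at 0.03 (SE 0.17, adjusted p = 0.949), 0.34 (SE 0.17, adjusted p = 0.48) and −0.12 (SE 0.19, adjusted p = 0.763) and Atf3 at −0.12 (SE 0.23, adjusted p = 0.827), −0.28 (SE 0.23, adjusted p = 0.593) and −0.11 (SE 0.26, adjusted p = 0.837) did not pass in FXS, RTT or DS either. Dusp1 was at 14.8, 18.1 and 20.8 FPKM in WT, with medians of 21.1 in FXS, 23.2 in RTT and 27.4 in DS. Its differences from WT were 0.36 (SE 0.18, adjusted p = 0.263), 0.47 (SE 0.18, adjusted p = 0.47) and 0.51 (SE 0.20, adjusted p = 0.145).

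**Figure D4:**
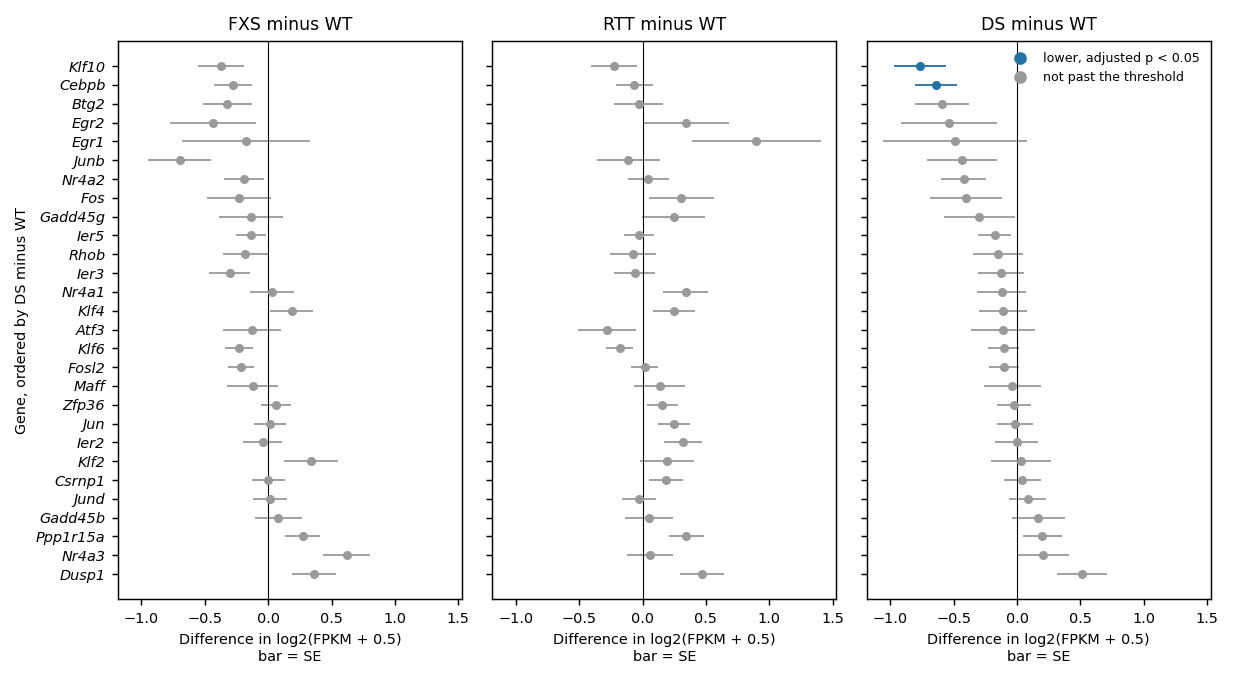
Difference in log2(FPKM + 0.5) with its standard error for the 28 genes tested in the disorder set, for FXS, RTT and DS minus WT, with genes ordered by DS minus WT. Klf10 and Cebpb in DS are the coloured points, with an adjusted p under 0.05, and Egr1 in RTT is the point farthest to the right, at 0.90.

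Between the disorders, no member passed by limma. The members with an unadjusted p under 0.05 were 8 in DS against RTT (all lower in DS), 7 in RTT against FXS (6 higher in RTT) and 1 in DS against FXS. Of all genes, 19.2%, 14.0% and 15.9% had such a p, 11.9% as lower in DS than in RTT and 4.94% as higher in RTT than in FXS, and 2.74%, 0.0235% and 2.72% passed the adjusted threshold. DS and RTT differed by −1.39 (SE 0.57, adjusted p = 0.195) in Egr1 and by −0.71 (SE 0.28, adjusted p = 0.187) in Fos. RTT and FXS differed by 1.07 (SE 0.51, adjusted p = 0.351) in Egr1 and by −0.56 (SE 0.18, adjusted p = 0.232) in Nr4a3. Without RTT 40, Junb and Nr4a3 passed between RTT and FXS and Btg2 between DS and RTT. Without DS 19, Cebpb passed between DS and RTT (limma adjusted p = 0.032). The shares of all genes passing in these fits are not given here, so the calls cannot be set against them. Of the other stimulus-induced genes, 1 of 33 passed in DS, the neurotrophin Bdnf at −0.81 (SE 0.19, adjusted p = 0.0151), and none in FXS or RTT. Of the 33 upstream regulators, the kinase gene Rps6ka1, which encodes the ribosomal S6 kinase RSK1, was lower in DS, with a difference of −0.76 (SE 0.15, adjusted p = 0.00381).

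Rhob had the highest mean FPKM of the members in every group but IP acute, where Fos did, and Egr4 the lowest in every group. In WT of the disorder set Rhob was at 128 ± 36.7 (SD, n = 6) FPKM, followed by Jund at 39.2 ± 8.94 (SD, n = 6) and Klf6 at 36.8 ± 5.61 (SD, n = 6), which did not differ beyond their spread. In Alone, Rhob at 89.6 ± 44.6 (SD, n = 6) and Jun at 65.4 ± 37.7 (SD, n = 6) overlapped. Fos was at 12.2 ± 2.06 (SD, n = 6) FPKM in WT and 15.9 ± 7.05 (SD, n = 6) in Alone. These levels were set by separate tables and are not compared between them.

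The members varied between libraries of a group more than the median gene. The median of their standard deviations within a group, on the log2 scale, was above the median of all genes in each of the 9 groups. In WT it was 0.29 against 0.19, in Alone 0.40 against 0.23, in IP cultured 0.50 against 0.25, and in DS 0.28 against 0.28, the closest. Egr1 had the largest standard deviation of the members in WT (0.61), FXS (1.142), RTT (1.11), DS (0.83) and BMP6 (0.69), and Gadd45b in Alone (0.91). FXS 28 was the highest of its group in 19 of 32 members, and DS 32 the lowest of its group in 17.

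Variation was shared between some members. Over the 22 disorder libraries, deviations from the group means of Fos and Egr1 correlated at r = 0.889 (rho = 0.815), those of Fos and Ier2 at r = 0.878 (rho = 0.796) and those of Fos and Junb at r = 0.661 (rho = 0.609). In permutation tests within groups, adjusted over the 12 pairs computed, p was 6e-05 for r and 0.00042 for rho with Egr1, where 1e-05 is the smallest unadjusted p that 100000 permutations can give. The adjusted p of r was 6e-05 with Ier2 and 0.00836 with Junb. Without FXS 28 and RTT 20, the libraries farthest from the median of Fos, r was 0.796, 0.746 and 0.599. Correlations of Fos did not pass with Nr4a1 (r = 0.254, permutation adjusted p = 0.455), Atf3 (r = 0.010, permutation adjusted p = 0.966) or Dusp1 (r = −0.034, permutation adjusted p = 0.966). In the 12 libraries of the BMP6 set, which come from 6 cultures and are not independent, Fos and Egr1 had r = 0.137 (rho = 0.049), with a permutation adjusted p of 0.846 for r and 0.895 for rho. For Fos and Nr4a1, r was 0.684 (permutation adjusted p = 0.0831) and rho 0.774 (permutation adjusted p = 0.0254), and these p-values take the libraries as independent.

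**Figure D5:**
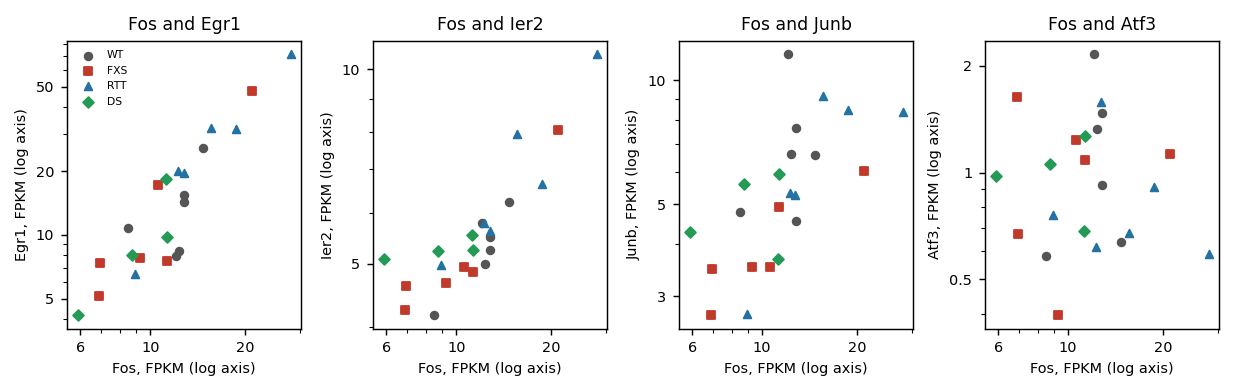
FPKM of Egr1, Ier2, Junb and Atf3 against FPKM of Fos, both on log axes, in the 22 libraries of the disorder set, with a colour and shape per group. Points of all 4 groups rise together for Egr1 and Ier2, more loosely for Junb, and show no trend for Atf3; RTT 20 and FXS 28 are the points of highest Fos.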

How the data were processed

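RNA was sequenced, per the labels' protocols, from stranded poly(A) libraries as single-end reads of 50 bp, on average 36 M reads for a sample. FastQC 0.11.8, STAR 2.5.3a, HOMER 4.10.4, DESeq2 1.14.1 and the build mm10 are named, per the submitters' processing notes, without their roles, and whether counting used strand is not given in the sources used here. Exons of Csrnp1, Jund, Ppp1r15a and Zfp36 overlap a gene on the opposite strand. Per the file headers, values of the disorder and BMP6 tables are FPKM. That of the preparations names no unit, and its layout, shared with the others, led to its deposited values being read as FPKM. It also holds the authors' log2 fold changes and adjusted p-values.

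Depth was estimated from low values, of which 72.8% to 77.8% were whole within 0.08 of a read. Gene lengths are not given, so transcript lengths of the GENCODE annotation were used for the depth and for estimated reads. The deposited values are FPKM, so no count test was run. Each table had its own limma fit (limma 3.58.1, R 4.3.3) of group on log2(FPKM + 0.5), with lmFit, trended eBayes, two-sided tests and Benjamini-Hochberg adjustment over all genes tested, with a threshold of 0.05. The pseudocount understates changes of low genes. Genes needed 1 FPKM in 4, 6 and 3 libraries of the disorder, BMP6 and preparation tables, which 28, 26 and 32 members met. Correlations used scipy 1.17.1 and numpy 2.4.6. In data simulated for DS against WT, BMP6 against Alone and IP cultured against IP acute, 88%, 80% and 66% of genes changed by 1 on the log2 scale were recovered, among 12747, 12210 and 13708 genes. Of the calls in these simulations, 5.53%, 3.80% and 9.30% were false, the last above the threshold of 0.05. Each simulation changed 100 genes by 1 and 100 by 2 on the log2 scale, all at a mean of at least 5 FPKM. Many more genes passed in the real data, and some members were below that level, so these rates are not those of the reported tests.

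All disorder libraries carry the batch label 1 and all preparations 8, so no split by batch was possible there. Alone and BMP6 libraries of a culture share number and batch label, and their deviations correlated at 0.41 to 0.78, so the numbers pair them. Alternatives were pseudocounts of 0.1 and 1, no filter or a filter at 5 FPKM, a demanded fold change of 2, robust eBayes, scaling by the median of ratios, quantiles, fits of the 2 groups compared, the replicate block, the authors' deposited comparisons and leaving out each library. Members and lists were chosen with earlier results of these data known. The genes named are Fos, Junb, Egr1, Nr4a1 and Atf3, the members past the threshold or of smallest p, and the leading genes of each list. Ppp1r15a in RTT, Btg2 in DS and the libraries and members discussed for their spread were chosen after their values were seen.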

Additional observations from a re-analysis of the deposited data

Results flagged for a closer look

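In groups of 4 to 6 libraries, a library was singled out where its gap to the nearest other, over the range of the group on the log2 scale, passed Dixon's 95% critical value. Of 192 sets of a gene in a group, 12 held such a library, and chance gives about 1 in 20, or 9.6.

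In WT, WT 22 was low in Fos (8.48 FPKM against 12 to 14.7 in the other 5) and high in Jun (49.1 FPKM against 28.5 to 33.2). WT 33 was low in Fosb (0.182 FPKM against 0.317 to 0.376), WT 30 was low in Nr4a2 (0.954 FPKM against 1.28 to 1.51) and WT 34 was high in Egr4 (0.130 FPKM against 0 to 0.0450, about 10 reads). FXS 28 was high in Egr3 (0.632 FPKM against 0.0790 to 0.166), Ier2 (8.06 FPKM against 4.25 to 4.94) and Arc (1.06 FPKM against 0.333 to 0.441), and was among the highest in Fos. DS 32 was low in Jun (24.2 FPKM against 34.2 to 36.6).

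In the BMP6 set, the BMP6 library of culture NAAC76 was high in Fosb (0.576 FPKM against 0.249 to 0.336) and Egr3 (0.287 FPKM against 0.0560 to 0.119), and that of culture NAAC124 was low in Ier3 (11.2 FPKM against 16.7 to 20.5).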

How the results depend on the processing

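The falls of 30 members in IP cultured and in MD cultured against IP acute kept a count of 28 to 31 under all alternatives run, the 28 in MD cultured with a fold change of at least 2, and over all genes the median difference of IP cultured from IP acute was −0.04 and under quantile normalization 0.16. The counts in MD cultured against IP cultured ran from 11 to 18 as libraries were left out, and Egr1 there turned from 0.12 to −0.46 without MD cultured 2, in a range of −0.46 to 0.44 as libraries were left out. For BMP6 against Alone, 6 members were called. The count was 2 with a fold change of at least 2, 3 with the median of ratios, 3 with quantile normalization, 3 without cultures NAAC91 and NAAC122, 9 with the replicate block, 13 with both, and 2 to 6 as libraries were left out. For DS against WT it was 0 with a fold change of at least 2, 1 without WT 33, FXS 31 and DS 32 (Ppp1r15a, higher, neither of the 2 members called otherwise), and 0 to 2 as libraries were left out. It was 0 to 1 for DS against RTT and 0 to 2 for RTT against FXS as libraries were left out. The cause of these changes was not tested, beyond the smaller number of samples. The alternatives that leave out cultures NAAC91 and NAAC122, or WT 33, FXS 31 and DS 32, were chosen after seeing the data.

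The same library numbers recur in IP acute and IP cultured, and same-numbered libraries correlated at 0.03, −0.05 and 0.09. With 3 libraries in each group, these values cannot decide whether the numbers pair the libraries. With the library numbers as a replicate block 29 members and 3907 genes passed, in place of 30 and 6106. For the MD cultured libraries and the disorder set no paired analysis was possible because they share too few numbers with the groups they are compared with. Fos and Nr4a1 in the BMP6 set had r = 0.771 (permutation adjusted p = 0.0462) without both libraries of culture NAAC91, in place of r = 0.684 (permutation adjusted p = 0.0831). Under quantile normalization the split over all genes in IP cultured against IP acute was 4215 higher and 2646 lower, in place of 2515 and 3591. Under the median of ratios it was 3040 and 2983 in MD cultured against IP cultured (2317 and 4137 as reported), 897 and 608 with BMP6 (655 and 1184) and 354 and 219 in DS (269 and 287). Values under 1 FPKM rest on fewer reads. Among the libraries flagged above, these ran from about 10 for Egr4 in WT 34 to about 138 for Egr3 in FXS 28. Other libraries had fewer, such as about 1 read for Egr4 in the Alone library of culture NAAC91. Members at or over 1 FPKM in too few libraries were not tested in the disorder and BMP6 sets. Others, such as Egr2, were tested with some libraries under 1 FPKM.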
